A study of Mus musculus with 10 samples.

Results

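Matrix metalloproteinases (MMPs) are zinc-dependent proteases that cut collagens, elastin and other proteins of the extracellular matrix, and tissue inhibitors of metalloproteinases (TIMPs) bind and block them. The 8 protease genes Mmp2, Mmp3, Mmp8, Mmp9, Mmp12, Mmp13, Mmp14 and Mmp19 and the 2 inhibitor genes Timp1 and Timp2 were described here. They were found by gene name in the count table, where each of the 10 names matched 1 of 46603 genes. Macrophages sorted from 4T1 tumours were sequenced; 4T1 is a mouse mammary carcinoma line. The tested fraction, PoEMs, was CD11B+, F4/80+ and PDPN+; the fraction it was set against, non-PoEMs, was CD11B+, F4/80+ and PDPN-. PDPN is podoplanin, a membrane glycoprotein of lymphatic endothelium and activated fibroblasts. The 5 tumours (1, 2, 4, 5 and 6) each gave a library of either fraction, n = 5 per fraction; the labels give no strain, age or treatment and do not say whether each tumour grew in its own mouse. Tumours were digested with collagenase 1 and dispase before sorting, for both fractions alike. The series was designed to study PDPN+ macrophages in matrix remodelling and lymphangiogenesis.

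MMPs are made as inactive precursors, and most are secreted, while MMP14 stays in the cell membrane, where it cleaves fibrillar collagen and activates the precursor of MMP2 with TIMP2 as a bridge. Tumour macrophages are a known source of MMP9, of MMP12, the macrophage elastase, and, in mice, of MMP13, a collagenase. Levels of mRNA say nothing of the amount of active enzyme, which also depends on precursor cleavage and on the inhibitors.

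Libraries held 12597829 to 15406722 counts assigned to genes, so that 1 count was 0.0649 to 0.0794 counts per 1000000 (CPM). The mRNA of the sort marker Pdpn was 214.5 ± 22.9 CPM in PoEMs and 19.3 ± 7.33 CPM in non-PoEMs (SD, n = 5 each), and Adgre1, the gene of F4/80, was at 526 ± 70.8 CPM in PoEMs and 573 ± 62.2 CPM in non-PoEMs. All 10 genes passed the filter on low counts in the table of 13595 tested genes. A gene was called when its adjusted p was under 0.05 in edgeR's quasi-likelihood test, in which the 5 libraries of each fraction were compared without regard to tumour. Of all tested genes, 6.83% were called higher and 6.77% lower in PoEMs. The numbers called were 617 higher and 588 lower without the PoEMs library of tumour 4, and 576 lower without the non-PoEMs library of tumour 2, against 929 and 920 with all libraries. Because both fractions came from each tumour, the same test with the tumour as a block is given beside the calls of the 10 genes and of the gene lists that it changed; with it 13.8% of genes were called higher and 14.3% lower.

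Of the 10 genes, 5 rose in PoEMs: Mmp12, Mmp2, Mmp8, Mmp13 and Mmp3. None fell in edgeR or in DESeq2, and none was lower at an unadjusted p under 0.05. The fitted increases of these 5 were 6.69-fold, 3.60-fold, 2.57-fold, 2.36-fold and 2.29-fold. Of all tested genes 1.52% were called and at least 2-fold higher in PoEMs. In each of these 5 genes the lowest PoEMs library lay above the highest non-PoEMs library, a separation found in this direction in 5.38% of all tested genes and in the other in 5.13%. With the tumour as a block 8 of the 10 were called higher, the additions being Mmp9, Mmp14 and Timp1, and none lower. The median log2 fold change of the 10 was 1.06, beside 0.01 over all tested genes. Mmp19 and Timp2 were not called in either fit.

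**Figure D1:**
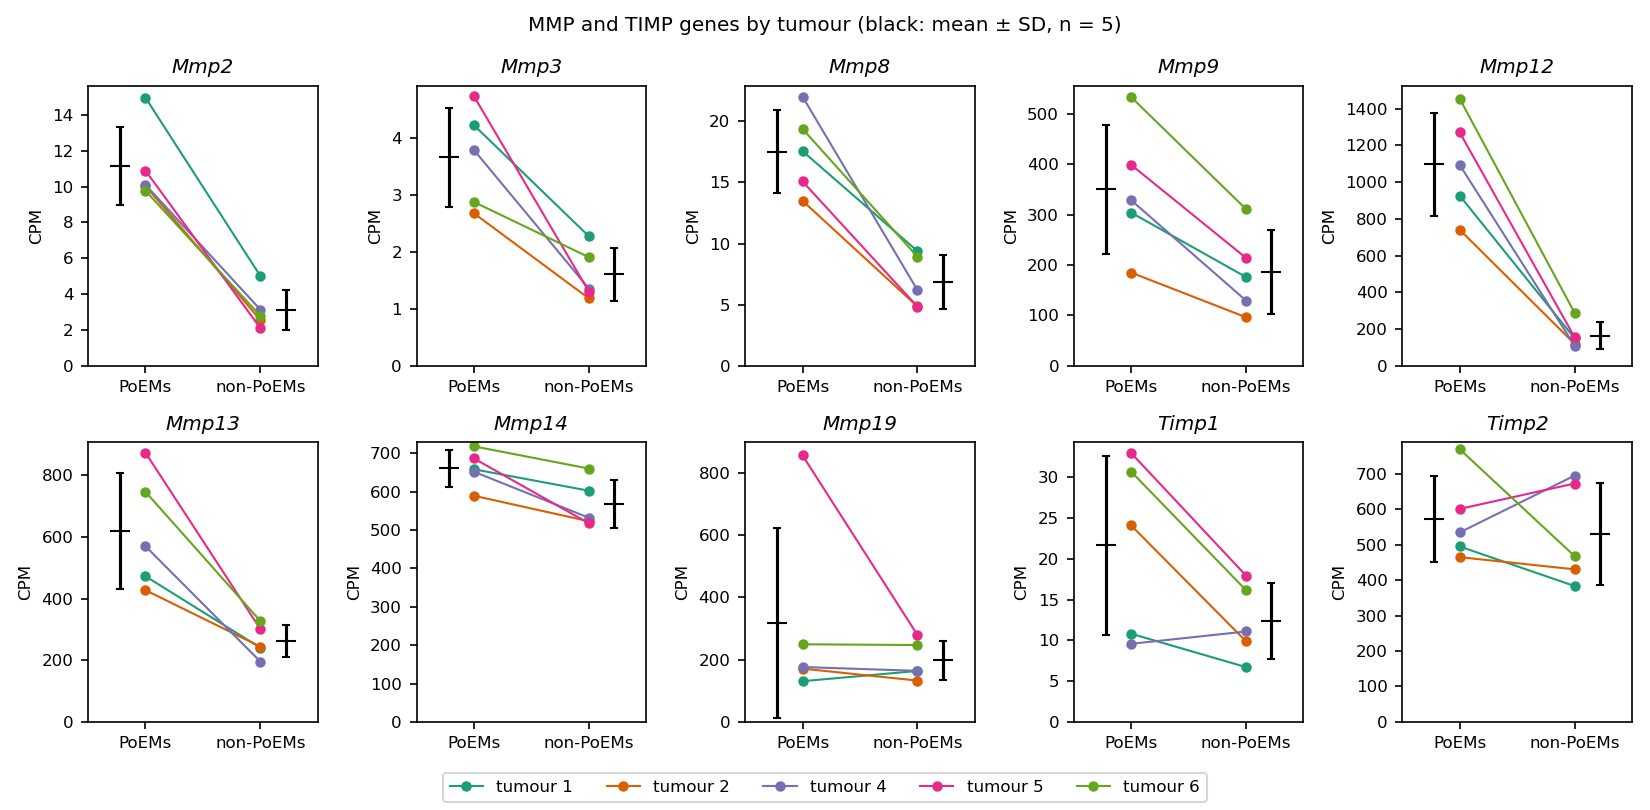
Level in CPM (vertical axis, starting at 0) of each of the 10 genes in PoEMs (left) and non-PoEMs (right); each line joins the fractions of 1 tumour, and black marks give the mean and SD of 5 libraries. In Mmp2, Mmp3, Mmp8, Mmp12 and Mmp13 every PoEMs point is above every non-PoEMs point, and for Mmp19 the PoEMs point of tumour 5 stands at 856 CPM, away from the others.

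**Figure D2:**
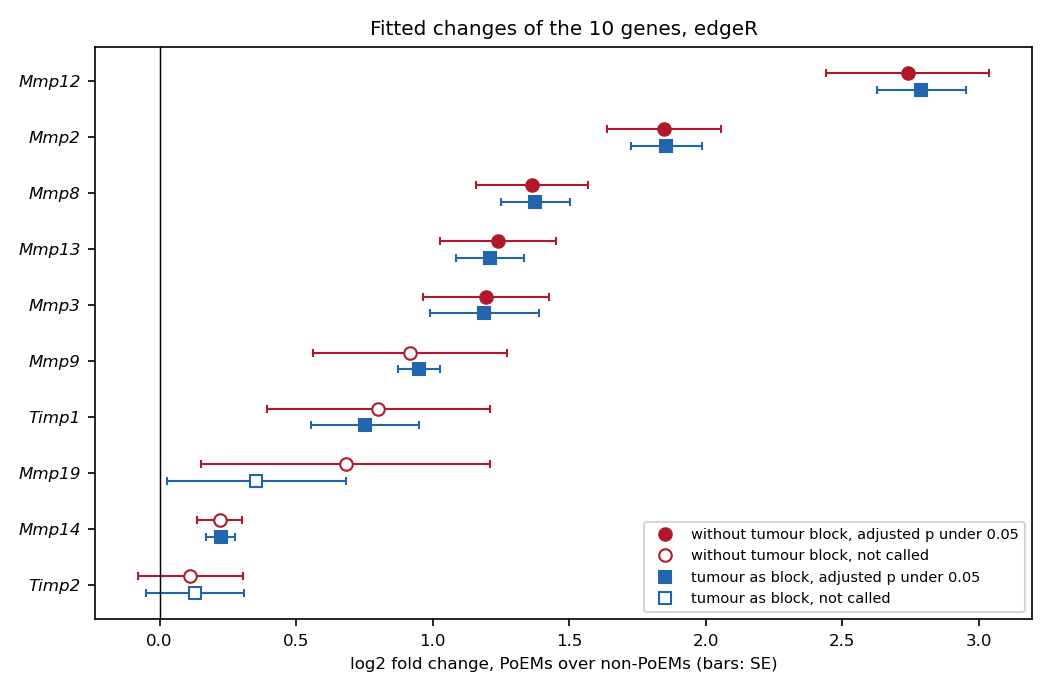
Fitted log2 fold change, PoEMs over non-PoEMs, of the 10 genes with its SE, without (red circles) and with (blue squares) the tumour as a block; filled marks are adjusted p under 0.05. Mmp12 is farthest right at 2.74, and Mmp9, Mmp14 and Timp1 are filled in blue only.

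Of the members, 4 lie within a cluster of 10 MMP genes on mouse chromosome 9, which spans 427.1 kb from 7272514 to 7699585 (GRCm38, GENCODE M21): Mmp13, Mmp12, Mmp3 and Mmp8, all on the plus strand. The other members lie alone, Mmp2 on chromosome 8, Mmp9 on 2, Mmp14 on 14, Mmp19 on 10, Timp2 on 11 and Timp1 on X. All 4 cluster members rose, and so their promoters are given here, from 250 bases before to 50 after the annotated start (RefSeq, GRCm38.p6; 7 of the 10 members had an entry). Capitals mark matches to TGANTCA, where N is any base. This is looser than TGACTCA or TGAGTCA, the consensus of the AP-1 transcription factor, made of FOS and JUN proteins. The motif searched is its own reverse complement, so both strands were searched at once. RefSeq gives 2 starts for Mmp12, and the window of the downstream start is shown because the upstream window held no match.
Mmp13 (chr9:7272264-7272563, plus strand): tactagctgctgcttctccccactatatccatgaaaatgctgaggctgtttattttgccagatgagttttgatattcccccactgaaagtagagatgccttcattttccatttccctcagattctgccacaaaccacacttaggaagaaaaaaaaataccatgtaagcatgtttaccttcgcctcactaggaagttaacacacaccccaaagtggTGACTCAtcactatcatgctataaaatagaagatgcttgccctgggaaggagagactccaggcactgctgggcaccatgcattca
Mmp12 (chr9:7347124-7347423, plus strand): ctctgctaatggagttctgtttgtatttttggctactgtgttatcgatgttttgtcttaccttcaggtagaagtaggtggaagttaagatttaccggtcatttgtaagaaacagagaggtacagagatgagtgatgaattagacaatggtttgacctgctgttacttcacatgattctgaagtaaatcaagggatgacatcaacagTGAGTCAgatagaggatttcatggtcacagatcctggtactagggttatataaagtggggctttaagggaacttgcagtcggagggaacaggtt
Mmp3 (chr9:7445572-7445871, plus strand): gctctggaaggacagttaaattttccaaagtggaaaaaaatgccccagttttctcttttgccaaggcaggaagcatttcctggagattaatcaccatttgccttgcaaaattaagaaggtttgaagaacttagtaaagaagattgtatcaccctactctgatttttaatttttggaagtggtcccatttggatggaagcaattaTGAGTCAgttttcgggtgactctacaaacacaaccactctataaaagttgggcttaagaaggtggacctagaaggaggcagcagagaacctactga
Mmp8 (chr9:7558179-7558478, plus strand): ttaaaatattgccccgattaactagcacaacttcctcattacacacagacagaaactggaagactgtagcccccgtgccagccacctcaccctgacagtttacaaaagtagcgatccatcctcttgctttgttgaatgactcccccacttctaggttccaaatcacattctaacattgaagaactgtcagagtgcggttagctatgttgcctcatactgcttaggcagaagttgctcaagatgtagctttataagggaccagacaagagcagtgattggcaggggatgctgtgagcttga
In these windows the match began 35 bases before the start of Mmp13, 44 before that of Mmp12 and 46 before that of Mmp3, and Mmp8 had none. Among the 10 genes of the cluster 8 had a match in at least 1 window, the others being Mmp8 and Mmp27. The match of Mmp20 was TGAATCA, and every other match was TGAGTCA or TGACTCA. Of the 12 MMP and TIMP genes elsewhere with an entry 0 had a match, and the members Mmp2, Mmp9 and Mmp19 had no entry. Of all 32851 promoter windows 7.81% held TGANTCA, a share by window and not by gene. Mmp7 and Mmp12 had 2 windows each, with a match in 1. A match is a property of these letters and was not measured as binding.

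Mmp12, the macrophage elastase gene, showed the largest change of the 10. In PoEMs it measured 927, 742, 1095, 1273 and 1456 CPM in tumours 1, 2, 4, 5 and 6, and in non-PoEMs 149, 119, 109, 155 and 289 CPM. The lowest PoEMs library, of tumour 2, was above the highest non-PoEMs library, of tumour 6, so the groups did not overlap. The means were 1099 ± 281 CPM in PoEMs and 164 ± 72.2 CPM in non-PoEMs (SD, n = 5 each). In edgeR this was a log2 fold change of 2.74 with an SE of 0.30 (adjusted p = 0.000363). Within tumours the log2 difference ran from 2.34 in tumour 6 to 3.33 in tumour 4. The end of Mmp12 overlaps the opposite-strand gene Mmp1b, which had 0 counts in PoEMs and 2 in non-PoEMs in all.

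Mmp13, the main interstitial collagenase gene of mice, was the highest of the cluster genes per kb of exon in both fractions. It measured 473, 427, 570.0, 873 and 747 CPM in PoEMs of tumours 1, 2, 4, 5 and 6, against 241, 244, 196, 301 and 327 CPM in non-PoEMs. Tumours 5 and 6 were the highest in both fractions, and the groups did not overlap. The edgeR log2 fold change was 1.24, SE 0.21 (adjusted p = 0.00388), with tumours 4 and 5 showing differences of 1.54 each and tumour 2 the smallest, 0.81.

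Mmp8, best known as the collagenase of neutrophil granules, measured 17.6, 13.5, 22.03, 15.1 and 19.4 CPM in PoEMs, against 9.38, 4.85, 6.19, 4.83 and 8.92 CPM in non-PoEMs. It was higher in PoEMs in 5 of 5 tumours, without overlap (edgeR log2 fold change 1.36, SE 0.21, adjusted p = 0.00129). Neutrophil markers moved the other way: all 8 that could be tested were lower in PoEMs, and the sum of the 12 listed ran from 98.5 to 135 CPM in PoEMs and from 237 to 334 CPM in non-PoEMs. Whether any of the 8 passed the filter through non-PoEMs alone, and so could be called lower only, was not checked. Among them S100a8 was at 5.81 ± 0.948 CPM in PoEMs and 15.4 ± 2.25 CPM in non-PoEMs (SD, n = 5 each). Whether a fraction held fewer neutrophils or less RNA per cell cannot be told apart in bulk samples, and the part of these cells in the level of Mmp8 was not tested. The primary granule genes Mpo and Elane averaged under 0.13 CPM in both fractions.

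Mmp3, stromelysin, a protease of broad range that also activates other MMP precursors, was the lowest of the 10 per kb of exon. It measured 4.22, 2.67, 3.78, 4.72 and 2.87 CPM in PoEMs, against 2.27, 1.18, 1.35, 1.30 and 1.90 CPM in non-PoEMs. Those levels rest on 37 to 62 counts per PoEMs library and 18 to 29 per non-PoEMs library. The groups did not overlap (edgeR log2 fold change 1.20, SE 0.23, adjusted p = 0.00488, and 0.0391 at most over 27 other settings).

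The remaining cluster genes were measured beside these. Mmp10, a close relative of Mmp3, was at 3.77 ± 1.17 CPM in PoEMs and 0.721 ± 0.370 CPM in non-PoEMs (SD, n = 5 each), higher in 5 of 5 tumours (adjusted p by edgeR = 0.000473). Mmp27 had 224 counts in all PoEMs and 82 in all non-PoEMs libraries and missed the threshold (edgeR adjusted p = 0.0583), but passed once the tumour was a block (edgeR adjusted p = 0.000643). Mmp7 and Mmp20 had no counts, and Mmp1a and Mmp1b at most 3 in a fraction. Mmp10 and Mmp27 passed the filter through PoEMs alone, as only 2 and 3 of the 5 non-PoEMs libraries held 10 counts or more, so their part in a count of cluster genes that rose was set by the filter. The nearest tested genes outside the cluster, Dcun1d5 on its near side and Tmem123 on its far side, had log2 fold changes of 0.08 and -0.08 (edgeR adjusted p = 0.396 and 0.606), and Birc3, an inhibitor of apoptosis gene farther out, fell by 0.70 on the log2 scale (adjusted p = 0.000806). Birc2, between Tmem123 and Birc3, had a log2 fold change of -0.30. It was called only with the tumour as a block (edgeR adjusted p = 0.0985 without and 0.00486 with it). The sources used here do not give how reads shared by related genes were assigned.

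**Figure D3:**
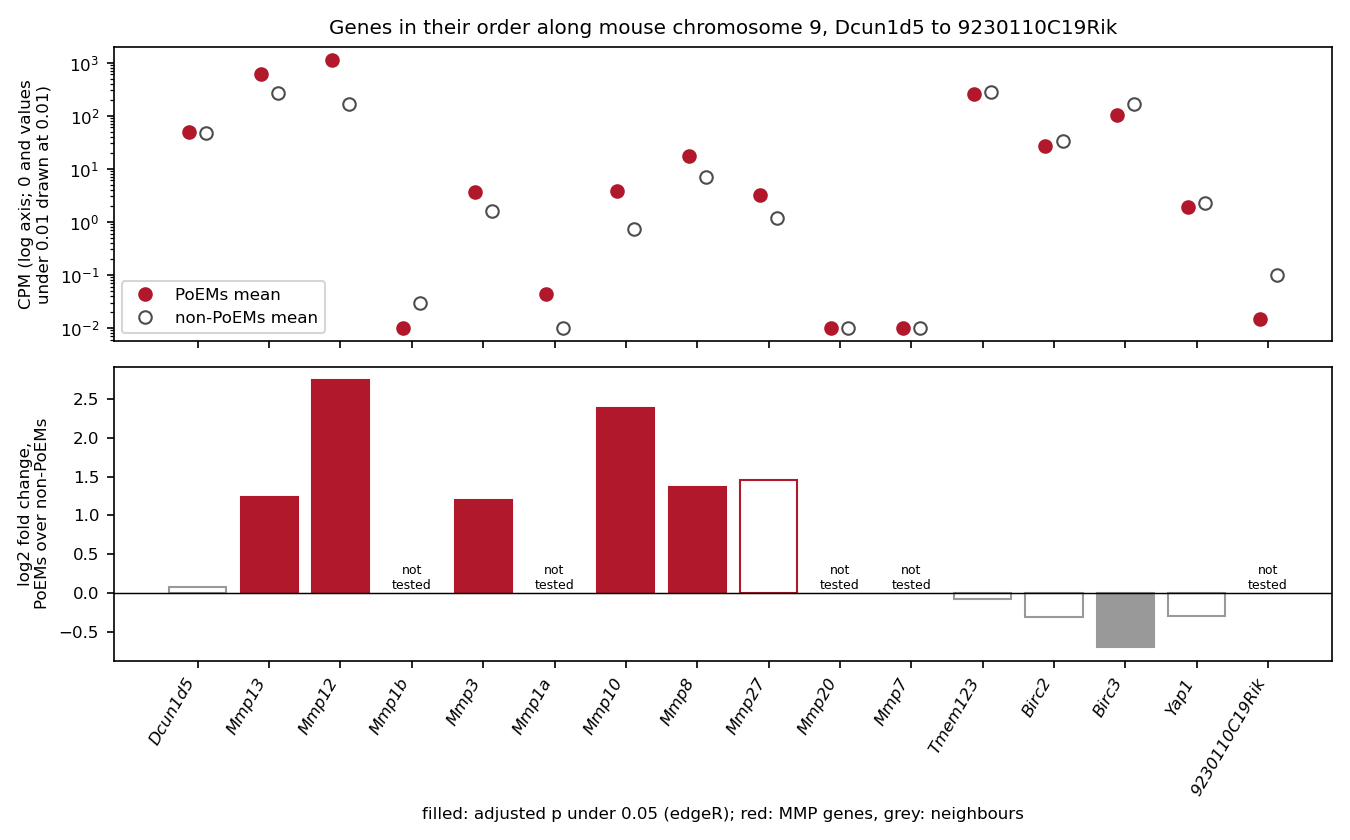
Genes in chromosome order, evenly spaced, from Dcun1d5 to 9230110C19Rik: mean CPM per fraction on a log axis (top; PoEMs filled, non-PoEMs open) and fitted log2 fold change, PoEMs over non-PoEMs (bottom; MMP genes red, neighbours grey, filled where adjusted p is under 0.05). The tested MMP genes from Mmp13 to Mmp27 lie above 0, and the tested neighbours lie between 0.08 and -0.70.

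The gelatinase genes Mmp2 and Mmp9, whose products cut denatured collagen and the type IV collagen of basement membranes, differed in whether the groups overlapped. Mmp2 measured 14.97, 10.03, 10.1, 10.9 and 9.77 CPM in PoEMs, against 5.00, 2.55, 3.13, 2.09 and 2.78 CPM in non-PoEMs. Tumour 1 was the highest in both fractions, and the groups did not overlap (edgeR log2 fold change 1.85, SE 0.21, adjusted p = 0.000135). Fibroblasts are known to express Mmp2 and Mmp3, and the 15 fibroblast markers, which include Pdpn, summed to 521 to 729 CPM in PoEMs and 87.9 to 126 CPM in non-PoEMs. Without Pdpn, on which the cells were sorted, the other 14 summed to 331 to 521 CPM in PoEMs and 65.9 to 104 CPM in non-PoEMs. In PoEMs of tumours 1, 2, 4, 5 and 6 the fibroblast sum, Pdpn included, was 719, 521, 607, 698 and 729 CPM. The part of these cells in the levels of Mmp2 and Mmp3 was not tested. Mmp9 measured 304, 185, 329, 399 and 534 CPM in PoEMs, against 176, 96.2, 129, 214 and 311 CPM in non-PoEMs. Here the groups overlapped, since tumour 6 was high and tumour 2 low in both fractions, yet PoEMs were higher in 5 of 5 tumours. Without regard to tumour the log2 fold change of 0.92, with an SE of 0.36, was not called (edgeR adjusted p = 0.125; 0.0473 without the non-PoEMs library of tumour 6). With the tumour as a block it was 0.95, SE 0.08 (edgeR adjusted p = 6.93e-06), and it stayed called with both libraries of any 1 tumour left out.

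Mmp14, the membrane-type protease gene, differed little between the fractions. It measured 658, 589, 652, 686 and 718 CPM in PoEMs, against 602, 523, 532, 517 and 660 CPM in non-PoEMs. The groups overlapped through tumours 1 and 6 of the non-PoEMs, while PoEMs were higher in 5 of 5 tumours, by 0.12 to 0.41 on the log2 scale. The fold was 1.17, or 0.22 on the log2 scale with an SE of 0.08 (edgeR adjusted p = 0.0966, 0.0296 without the non-PoEMs library of tumour 6, and 0.00578 with the tumour as a block).

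Mmp19, a soluble MMP outside the chromosome 9 cluster, was set apart by a single library. It measured 131, 171, 176, 856 and 249 CPM in PoEMs, against 164, 133, 164, 279 and 247 CPM in non-PoEMs. The PoEMs library of tumour 5 was the only high value, and the remaining libraries of both fractions overlapped. The edgeR log2 fold change was 0.68, SE 0.53 (adjusted p = 0.448, 95% interval -0.51 to 1.87), 0.36 with the tumour as a block, and -0.12 without that library. Tmem198b, which overlaps Mmp19 on the opposite strand, was at 19.9 ± 1.502 CPM in PoEMs and 21.1 ± 1.63 CPM in non-PoEMs (SD, n = 5 each).

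**Figure D4:**
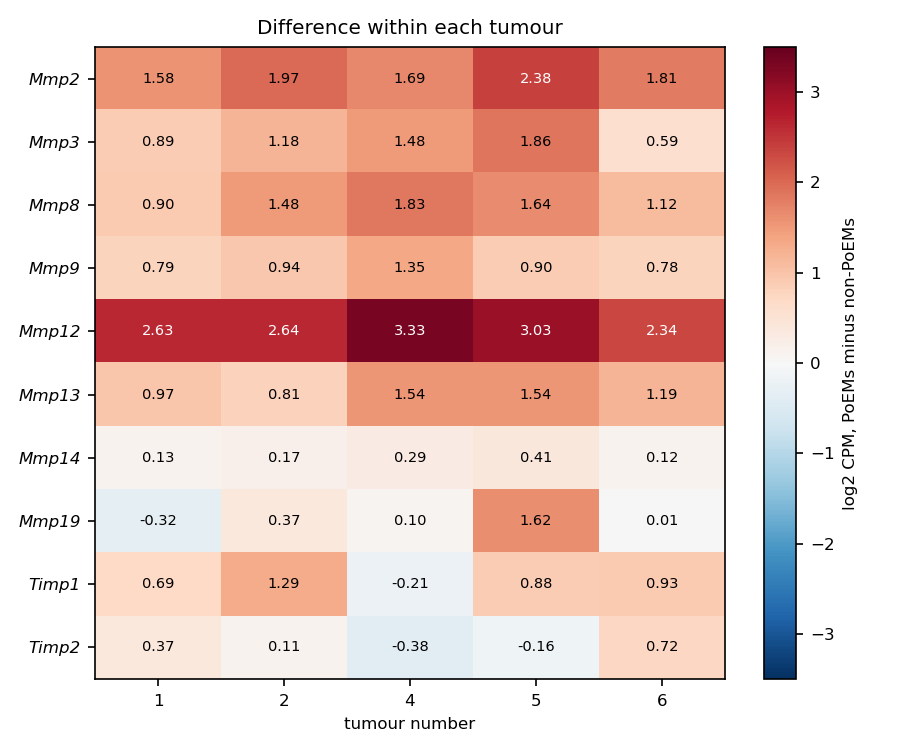
Difference in log2 CPM, PoEMs minus non-PoEMs, of each gene (rows) within each tumour (columns), with the value printed in each cell. The protease genes Mmp2, Mmp3, Mmp8, Mmp9, Mmp12, Mmp13 and Mmp14 are above 0 in all 5 tumours; Mmp19 is 1.62 in tumour 5 and -0.32 in tumour 1, and Timp2 is below 0 in tumours 4 and 5.

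Neither inhibitor was called without the block. Timp1, whose product blocks most soluble MMPs but is a weak inhibitor of MMP14, measured 10.8, 24.1, 9.58, 33.0 and 30.7 CPM in PoEMs, against 6.72, 9.89, 11.1, 18.0 and 16.2 CPM in non-PoEMs. The groups overlapped, and PoEMs were higher in 4 of 5 tumours, tumour 4 being the exception. Its log2 fold change was 0.80, SE 0.41 (edgeR adjusted p = 0.236). With the tumour as a block it was 0.75, SE 0.20 (edgeR adjusted p = 0.0327), a call that was lost on leaving out tumour 1, 2, 5 or 6 (adjusted p = 0.0885, 0.0658, 0.112 and 0.116). Timp1 overlaps Syn1, a gene on the opposite strand, which was at 3.99 ± 0.954 CPM in PoEMs and 5.47 ± 1.73 CPM in non-PoEMs.

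Timp2, which inhibits MMP2 and MMP14 and also takes part in the activation of MMP2, measured 495, 465, 535, 601 and 770 CPM in PoEMs. In non-PoEMs it measured 383, 431, 695, 673 and 468 CPM. The groups overlapped throughout, with PoEMs higher in 3 of 5 tumours and lower in tumours 4 and 5. The log2 fold change was 0.11, SE 0.19 (edgeR adjusted p = 0.750, 95% interval -0.31 to 0.54), and -0.02 without the PoEMs library of tumour 6.

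Per kb of merged exons, the levels of the 10 genes stood in a different order in the fractions. In PoEMs Mmp13 was the highest, at 231 ± 70.4 CPM per kb, followed by Mmp12 at 152 ± 38.8, Timp2 at 147 ± 31.1, Mmp14 at 111 ± 8.01, Mmp9 at 99.0 ± 36.3 and Mmp19 at 89.6 ± 86.2 (SD, n = 5). Each of these overlapped the next in range. In non-PoEMs Timp2 came first, at 136 ± 36.9 CPM per kb, then Mmp13 at 97.9 ± 19.6, Mmp14 at 95.1 ± 10.5, Mmp19 at 55.8 ± 17.7, Mmp9 at 52.4 ± 23.6 and Mmp12 at 22.7 ± 9.97, where the range of Mmp14 lay wholly above that of Mmp19 and the other neighbours overlapped. Timp1, Mmp8, Mmp2 and Mmp3 were the lowest in both fractions, in this order, with PoEMs at 24.4, 7.22, 3.31 and 2.03 CPM per kb and non-PoEMs at 13.9, 2.82, 0.923 and 0.888 CPM per kb. In both fractions the ranges of Timp1 and Mmp8, and of Mmp8 and Mmp2, did not overlap, while Mmp2 and Mmp3 overlapped in non-PoEMs only. Scaled to the longest transcript instead, Mmp12 was first in PoEMs at 246 ± 62.7 CPM per kb and Mmp14 first in non-PoEMs at 175 ± 19.3, so the order at the top depends on the length used. As a share of the summed level per kb of the 8 protease genes, Mmp12 made up 22.2% ± 2.59 in PoEMs and 6.71% ± 1.398 in non-PoEMs (SD, n = 5 each). Mmp14 made up 16.9% ± 3.85 in PoEMs and 29.7% ± 4.68 in non-PoEMs. These shares also depend on the length used. Scaled to the longest transcript, Mmp12 made up 27.5% in PoEMs and 8.26% in non-PoEMs, and Mmp14 23.8% and 41.4%.

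Ratios of a protease to an inhibitor gene within a library, which do not depend on how libraries are scaled, are given as descriptions without a test. The level and sign of a ratio depend on the gene lengths, here of merged exons, while its difference between the fractions does not. Per kb of longest transcript, mean Mmp14 lay above mean Timp2, at 204 and 155 CPM per kb in PoEMs and 175 and 143 in non-PoEMs. The log2 ratio of Mmp2 to Timp2, per kb, ran from -6.09 to -4.84 in PoEMs and from -8.12 to -6.05 in non-PoEMs and was higher in PoEMs in 5 of 5 tumours. That of Mmp9 to Timp2 averaged -0.63 ± 0.32 in PoEMs and -1.45 ± 0.75 in non-PoEMs (SD, n = 5 each) and was also higher in 5 of 5. The ratio of Mmp14 to Timp2 was nearly equal, at -0.39 ± 0.20 in PoEMs and -0.48 ± 0.49 in non-PoEMs, and higher in PoEMs in 3 of 5 tumours. Against Timp1, the ratio of Mmp14 was lower in PoEMs in 4 of 5 tumours (2.36 ± 0.83 in PoEMs and 2.85 ± 0.60 in non-PoEMs) and that of Mmp9 was higher in 3 of 5. Ratios for Mmp12 and Mmp13 were chosen after the values of these genes were seen. That of Mmp12 to Timp2 ran from -0.22 to 0.19 in PoEMs and from -3.57 to -1.59 in non-PoEMs, without overlap. Mmp12 to Timp1 and Mmp13 to Timp2 did not overlap either, at 2.78 ± 0.80 in PoEMs and 0.70 ± 0.58 in non-PoEMs, and at 0.62 ± 0.27 in PoEMs and -0.46 ± 0.52 in non-PoEMs. Mmp13 to Timp1 overlapped and was higher in PoEMs in 4 of 5 tumours, at 3.37 ± 0.70 in PoEMs and 2.88 ± 0.44 in non-PoEMs.

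The other MMP and TIMP genes were mostly scarce. Of 17, 5 could be tested; 2 were higher (Mmp10 and Timp3), 1 was lower (Mmp25), Mmp11 and Mmp27 were not called, and 4 had no counts at all. Both higher genes passed the filter through PoEMs alone, Timp3 having 3 to 9 counts in each non-PoEMs library, so they could be called in 1 direction only. Timp3, whose product is held in the matrix, was at 2.20 ± 1.26 CPM in PoEMs and 0.394 ± 0.204 CPM in non-PoEMs (SD, n = 5 each; adjusted p by edgeR = 0.00413). Mmp25, a membrane-anchored MMP of leukocytes, measured 9.49, 15.2, 10.9, 17.1 and 8.53 CPM in PoEMs, against 23.3, 47.0, 19.9, 40.1 and 35.0 CPM in non-PoEMs. It was lower in 5 of 5 tumours without overlap (edgeR log2 fold change -1.44, SE 0.28, adjusted p = 0.00753), the opposite direction to Mmp8.

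Genes for proteins that activate, dock or clear MMPs were also read. Of 25 such genes 20 could be tested, 7 were higher and 3 lower, with a median log2 fold change of 0.16. The block added Cd63, a tetraspanin gene, as higher (edgeR adjusted p = 0.253 without and 0.0113 with the block), for 8 higher and 3 lower. Thbs2, whose product binds MMP2 for uptake through LRP1, was at 12.3 ± 2.84 CPM in PoEMs and 0.917 ± 0.401 CPM in non-PoEMs (SD; adjusted p by edgeR = 2.73e-06). Lrp1 itself was at 1898 ± 152 CPM in PoEMs and 1297 ± 196 CPM in non-PoEMs (SD; adjusted p by edgeR = 0.00334). Plau, the urokinase gene, rose 1.77-fold, Bsg, which encodes an inducer of MMPs, 1.33-fold, the collagen chaperone gene Serpinh1 2.14-fold and the tetraspanin gene Cd151 1.31-fold (edgeR adjusted p = 0.0533 for Cd151 without tumour 2). Furin, whose product cleaves the MMP14 precursor, rose 1.49-fold (edgeR adjusted p = 0.0351). That call was lost without the PoEMs library of tumour 4, 5 or 6 or the non-PoEMs library of tumour 1, 2 or 4 (adjusted p = 0.0597 to 0.0892 in edgeR). Lcn2, whose product binds MMP9 in human neutrophils, fell by 1.30 on the log2 scale (edgeR adjusted p = 0.0125, and 0.0698 without tumour 4 or 0.0505 without tumour 5). The tetraspanin gene Cd82 fell by 0.29 (edgeR adjusted p = 0.0331), a call lost without the PoEMs library of tumour 1, 2, 4 or 5 or the non-PoEMs library of tumour 2, 5 or 6 (0.0592 to 0.0844). The protease inhibitor gene Cst3 fell by 0.20 (edgeR adjusted p = 0.0493), a call lost without any PoEMs library or the non-PoEMs library of tumour 1, 2, 4 or 5 (0.0523 to 0.128). Furin and Cst3 were picked out after their values were seen.

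Of 18 transcription factor genes tied to MMP promoters all were tested, none was higher and 7 were lower in PoEMs, with a median log2 fold change of -0.21; at an unadjusted p under 0.05 in edgeR 3 were higher and 8 lower, and DESeq2 called 1 higher. The tumour block gave 1 higher, Runx2, and 10 lower, adding Ets2, Cebpb and Stat3 (edgeR adjusted p = 0.00990, 0.0140 and 0.0270, against 0.274, 0.196 and 0.243 without it). The 7 lower genes were the AP-1 genes Fosb, Junb, Fos, Jund and Fosl2 and the NF-kappaB genes Rela and Nfkb1, of which Nfkb1 (edgeR adjusted p = 0.0194) was lost without the PoEMs library of tumour 1 or 4 or the non-PoEMs library of tumour 2 (0.0533, 0.0554 and 0.0532). Fos was at 1323 ± 165 CPM in PoEMs and 2123 ± 397 CPM in non-PoEMs (SD; adjusted p by edgeR = 0.00354). Junb was at 1827 ± 80.4 CPM in PoEMs and 2599 ± 157 CPM in non-PoEMs (SD; adjusted p by edgeR = 0.000362). Of the genes with a TGANTCA match Mmp3, Mmp10, Mmp12 and Mmp13 could be tested, and they were called higher in PoEMs. Mmp10 passed the filter through PoEMs alone, so it could be called in this direction only. Mmp8, with no match in its window, was also higher (log2 fold change 1.36). Whether these factors had a part in the levels of MMP genes was not tested. Runx2, a factor of Mmp13, missed the threshold at 26.6 ± 4.54 CPM in PoEMs and 20.6 ± 1.80 CPM in non-PoEMs (edgeR adjusted p = 0.0519, and 0.00253 in the fit blocked by tumour).

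Markers of other cells moved with the fractions. Of the 15 fibroblast markers 12 were higher and 1 lower in PoEMs, or 11 and 1 of the other 14 without Pdpn, and none was at 0 in all libraries. Markers that passed the filter through PoEMs alone could be called higher only, and their number was not determined. The block added Pi16 as higher (edgeR adjusted p = 0.315 without and 0.000359 with the block), for 13 higher and 1 lower. Of the defining ones, Pdgfra was at 2.86 ± 0.621 CPM in PoEMs and 0.895 ± 0.330 CPM in non-PoEMs, and Dcn at 5.55 ± 2.35 CPM in PoEMs and 0.678 ± 0.281 CPM in non-PoEMs (SD, n = 5 each). Fibroblasts are also known for Timp1, Timp2 and Timp3. The 12 macrophage markers summed to 26051 to 30425 CPM in PoEMs and 24157 to 27867 CPM in non-PoEMs, with 1 higher and 1 lower, and the block gave 3 higher and 2 lower. The 8 monocyte markers summed to 11708 to 17958 CPM in PoEMs and 6867 to 10009 CPM in non-PoEMs; without Fn1, the fibronectin gene, the other 7 summed to 520 to 784 CPM in PoEMs and 1007 to 1561 CPM in non-PoEMs. The 9 eosinophil markers summed to 4.76 to 14.4 CPM in PoEMs and 58.6 to 149 CPM in non-PoEMs. Of these 5 could be tested and 4 were lower, or 5 with the block, and none was higher. An eosinophil marker that passed the filter through non-PoEMs alone could be called lower only, so the direction of these calls may have been set by the filter. Prg2, Epx, Ear1 and Ear6 were at 0 in all PoEMs libraries. Of 12 epithelial and 4T1 markers 8 could be tested. Without the block edgeR called none of these, with 2 lower at an unadjusted p under 0.05. With the block it called Cdh1 higher and Epcam and Krt8 lower (adjusted p = 0.00683, 0.0356 and 0.0323). Sums of the 12 overlapped, at 96.2 to 259 CPM in PoEMs and 80.5 to 211 CPM in non-PoEMs, but within each tumour the sum was higher in PoEMs. The part of these cells in the results was not tested.

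**Figure D5:**
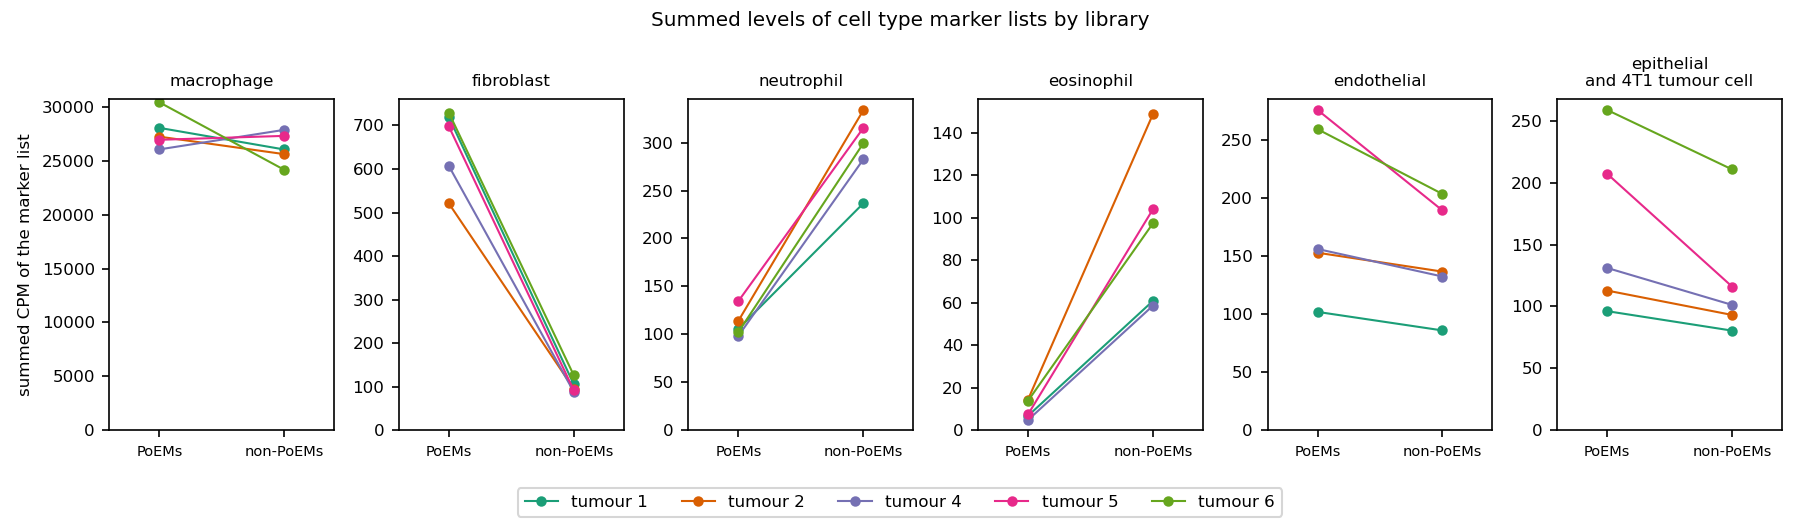
Summed CPM of the macrophage, fibroblast, neutrophil, eosinophil, endothelial and epithelial marker lists per library (vertical axes start at 0) in PoEMs (left) and non-PoEMs (right), with lines joining the fractions of 1 tumour. Fibroblast sums are at 521 to 729 CPM in PoEMs and at most 126 CPM in non-PoEMs, the sort marker Pdpn included, neutrophil and eosinophil sums are lower in PoEMs, and macrophage sums are alike. Endothelial and epithelial sums overlap between the fractions but are higher in PoEMs within each tumour.

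Across tumours some members moved together. Pearson's r of log2 CPM after subtraction of the fraction mean, over the 10 libraries, was 0.93 between Mmp9 and Mmp12, 0.87 between Mmp12 and Mmp14, and 0.82 between Mmp12 and Mmp13. Between Mmp2 and Timp1 it was -0.61. These are descriptions, since libraries of 1 tumour share their source. By the same measure among 9650 genes of at least 3 mean log2 CPM, the genes most like Mmp12 were Strn4, Mapkapk3 and Tssc1 (r of 0.98, 0.96 and 0.96). Those most like Timp2 were Folr2, Rab31 and Hmox1 (0.99, 0.98 and 0.98). For Mmp13 they were Myl12a, Tusc3 and Gm12389 (0.96, 0.96 and 0.95), and for Mmp14 C130050O18Rik, 1810037I17Rik and Cox6a1 (0.96 each). In so wide a search every member had a close match, the lowest best r being 0.95, for Mmp19. A high r is therefore not particular to the genes named.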

How the data were processed

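RNA of 10 libraries was pre-amplified with SMART-Seq, per the labels' protocols, which name no molecular identifiers, so reads are not independent molecules. Intervals of fold changes are for the mean difference between the fractions, from the fit without the tumour block. Their width rests on the spread between libraries. The authors deposited raw read counts per gene. The tools were featureCounts 1.5.3, STAR 2.5.2b, Bowtie2 2.3.3.1 and cutadapt 1.15, per the submitters' processing notes. The sources used here do not give the build, annotation, strand setting or handling of multi-mapped reads. Positions and lengths are from GENCODE M21 (GRCm38), which matched 46091 identifiers.

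Groups and tumour numbers were taken from the sample titles. Genes were filtered with filterByExpr (minimum count 10, minimum total 15), scaled with TMM and tested with edgeR 4.0.16 in R 4.3.3 (quasi-likelihood, robust, group as the only term, Benjamini-Hochberg adjustment over 13595 genes). The SE is the log2 fold change divided by the square root of F. CPM are TMM-scaled. Self-tests on simulated data were run. Same-numbered libraries came from 1 tumour per the labels, and their deviations from the fraction means correlated (r of 0.25 to 0.53 over genes), so a fit with the tumour as a block was run beside it. Alternatives included DESeq2 1.42.0, other scalings and filters, and leaving out libraries or tumours. P-values rest on the spread between these samples, as separate mice are not stated. No libraries of a fraction agreed within sampling noise (chi-square per gene at least 7.60). All 10 genes, list genes called (up to 8 a list by lowest p), Pdpn and marker genes are named. Neighbouring genes were chosen by position. The members and lists were chosen with earlier results of these data known. Further marker lists were read, without and, in brackets, with the tumour block where it differed. In these lists too, a marker that passed the filter through a single fraction could be called higher in that fraction only. All 8 monocyte markers were tested, and 1 was called higher and 2 lower (2 and 4). Of 8 mast cell and basophil markers 2 could be tested, with 1 lower (2). Of 8 endothelial markers 4 could be tested, with 1 higher (2). Of 6 lymphatic endothelial markers 2 could be tested, with none called in edgeR and none at an unadjusted p under 0.05. DESeq2 was not read for markers. Of 10 T and NK cell markers only 1 could be tested, and it was lower. Of 7 B and plasma cell markers only 2 could be tested, and both were lower. Of 8 conventional dendritic cell markers 6 could be tested, with 1 lower (3).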

Additional observations from a re-analysis of the deposited data

Results flagged for a closer look

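Among 30 gene-by-fraction groups of 5 libraries (the 10 genes and the 5 tested relatives), 3 held a library far from the other 4, a gap to its neighbour above 0.71 of the whole range; chance marks about 1 in 20 such groups. Mmp19 in PoEMs of tumour 5 stood at 856 CPM, with the next PoEMs library at 249 CPM. Without that library the log2 fold change of Mmp19 was -0.12, and without both libraries of tumour 5 it was 0.04. Mmp2 in PoEMs of tumour 1 stood at 14.97 CPM, with the next at 10.9 CPM. Mmp12 in non-PoEMs of tumour 6 stood at 289 CPM, with the next at 155 CPM; that library lay below the lowest PoEMs library, at 742 CPM. The calls of Mmp2 and Mmp12 were the same in all 27 other settings.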

How the results depend on the processing

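Mmp2, Mmp3, Mmp8, Mmp12 and Mmp13 kept their direction and their call in all 27 other settings: other scalings, filters and DESeq2, the tumour as a block, and 20 settings that left out 1 library or both libraries of a tumour. The number of the 10 genes called higher was 5, and 8 with the tumour as a replicate block in edgeR and 8 in DESeq2; with libraries left out it ran from 5 to 8, and none was called lower in any setting. Mmp9 and Mmp14 also passed without the non-PoEMs library of tumour 6 (adjusted p = 0.0473 and 0.0296). Over all genes, 1880 were called higher and 1950 lower with the block, and 1445 lower with DESeq2 and the block; with libraries left out the counts ran from 437 to 1925 higher and from 482 to 2016 lower, where the low ends had 8 libraries without the block and the high ends kept the block. The log2 fold change of Mmp19 turned to -0.12 without the PoEMs library of tumour 5 and was at most 0.88 with libraries left out. That of Timp2 turned to -0.016 without the PoEMs library of tumour 6, -0.0585 without both libraries of tumour 6 and -0.017 without both and with the block, and was at most 0.25; the cause was not tested. The planned exact tests of members below the filter were not run, as none lay below it. Depth limits Mmp3, at 18 to 62 counts a library, more than the other members.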
